A study of Mus musculus with 9 samples.

Results

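The killer cell lectin-like receptors are the C-type lectin-like proteins encoded by the Klr genes, and they were followed here in mouse CD8+ T cells given OVA peptide with or without citraconate. Members were chosen by symbol alone, as the Klra, Klrb, Klrc, Klrd, Klre, Klrg, Klri and Klrk genes, by a rule that uses no measured value. This gave 30 of the 48709 genes in the table: 14 Klra, 6 Klrb, 5 Klrc, Klrd and Klrk genes, 3 Klre and Klri genes, and 2 Klrg genes. Of these, 4 are pseudogenes by their names. RNA from 9 libraries was sequenced, 3 in each of 3 groups: OVA/Citra (OVA peptide and citraconate), OVA (OVA peptide) and CTRL (no OVA peptide). The OVA peptide comes from chicken ovalbumin and is a common model antigen for CD8 T cells; citraconate is an isomer of itaconate, a metabolite of activated macrophages. The labels call the material of 8 libraries "PAS-T cells", a term they leave undefined, and that of OVA/Citra replicate 1 OVA-stimulated T cells. The sources used here give no strain, age, dose or time, and no group received citraconate without the peptide. Whether replicates came from separate cultures or animals is not stated, and the p-values cover the spread among these samples alone, which could be technical.

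Most Klr genes lie in the natural killer gene complex of mouse chromosome 6 and were first studied on natural killer cells, which kill without an antigen-specific receptor. Activated CD8 T cells can also carry some of them. Inhibitory members signal through motifs in their own cytoplasmic tails that recruit phosphatases such as SHP-1, whereas activating members pair with adaptor proteins, among them DAP12 (Tyrobp) and DAP10 (Hcst). The CD94 chain (Klrd1) pairs with an NKG2 chain from a Klrc gene and reads the class I molecule Qa-1, NKG2D (Klrk1) reads stress-induced ligands, KLRG1 reads cadherins, the NKR-P1 receptors (Klrb) read Clr proteins, and the Ly49 receptors (Klra) mostly read classical class I molecules.

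Levels are in TPM, the transcripts of a gene in a fixed total of transcripts of its library, which corrects for gene length so that genes can be compared. Reads assigned to genes, worked back from the table, numbered 14754676 to 17384484 per library. Summed TPM of 15 CD8 T cell markers was 10801 to 11868 in OVA/Citra, 5704 to 7509 in OVA and 11114 to 11745 in CTRL libraries. Of 5 CD4 T cell markers, Cd4 itself stayed between 0.836 and 3.11 TPM in all libraries, and the list, led by the activation gene Il2ra, summed to 543 to 735 TPM in OVA/Citra, 662 to 818 TPM in OVA and 323 to 410 TPM in CTRL. Summed TPM of 13 natural killer cell markers outside the Klr genes was 5208 to 8633 in OVA/Citra, 14504 to 23598 in OVA and 2262 to 3041 in CTRL. Of these markers, Tyrobp, Fcer1g, Ncr1, Fcgr3, Eomes and Irf8 each averaged at most 227, 933 and 31.5 TPM in the same groups. Most of each sum thus came from the rest of the list, which holds the cytotoxic granule genes Gzma and Prf1. The sum therefore does not by itself measure natural killer cells. Replicate 2 had the lowest T cell sum and the highest natural killer sum of its group in both OVA/Citra and OVA, so the counts of calls and several of the changes below are also given without them. In bulk RNA, fewer cells of a type and less RNA per cell cannot be told apart, and the part of other cells in the results below was not tested. Across the 11971 genes tested the median log2 change was 0.12 for OVA/Citra against OVA, and 0.0018 after scaling by the median of ratios. Changes of single genes in that comparison are therefore given relative to 0.12. Calls and adjusted p-values test the change before this median is taken off. For rises they thus test a larger value than the one printed, and for falls a smaller one. The median was -0.08 for OVA against CTRL and 0.04 for OVA/Citra against CTRL.

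Promoter windows of 300 bases, 250 before the start of the gene and 50 after it, were available in RefSeq (GRCm38.p6) for 23 of the 30 genes, in 28 windows. Klrd1, Klrg1 and Klri2 were among the genes without a window, so the motif counts do not cover them. The windows of 5 genes are shown because these genes stand for the patterns described below: Klrk1, Klrc2 and Klrc1 had their highest level in OVA/Citra, Klrb1c and Klra7 in OVA. All lie on the minus strand and read 5′ to 3′. Capitals mark letters of 4 searched motifs on either strand, TGTGGT (RUNX), CTTTGA (TCF/LEF), TGANTCA (AP-1) and GGTGTGA (T-box).
Klrk1, chr6:129623815-129624114: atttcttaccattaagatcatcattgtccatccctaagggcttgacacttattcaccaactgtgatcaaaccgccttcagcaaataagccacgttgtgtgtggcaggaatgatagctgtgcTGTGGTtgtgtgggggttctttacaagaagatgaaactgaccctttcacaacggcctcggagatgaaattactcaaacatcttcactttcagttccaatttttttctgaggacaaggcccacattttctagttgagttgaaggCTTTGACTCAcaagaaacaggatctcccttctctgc
Klrc2, chr6:129660547-129660846: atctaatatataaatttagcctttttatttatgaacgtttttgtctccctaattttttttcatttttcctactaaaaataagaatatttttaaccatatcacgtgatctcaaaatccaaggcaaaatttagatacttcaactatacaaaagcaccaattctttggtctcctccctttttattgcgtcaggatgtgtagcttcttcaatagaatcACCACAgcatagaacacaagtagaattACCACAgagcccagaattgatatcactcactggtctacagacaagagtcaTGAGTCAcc
Klrc1, chr6:129678924-129679223: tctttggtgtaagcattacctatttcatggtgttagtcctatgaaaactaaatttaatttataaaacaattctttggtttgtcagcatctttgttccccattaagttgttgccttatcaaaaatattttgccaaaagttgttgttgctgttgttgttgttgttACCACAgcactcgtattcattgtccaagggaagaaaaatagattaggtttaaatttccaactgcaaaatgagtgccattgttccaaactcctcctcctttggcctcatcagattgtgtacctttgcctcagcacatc
Klrb1c, chr6:128788592-128788891: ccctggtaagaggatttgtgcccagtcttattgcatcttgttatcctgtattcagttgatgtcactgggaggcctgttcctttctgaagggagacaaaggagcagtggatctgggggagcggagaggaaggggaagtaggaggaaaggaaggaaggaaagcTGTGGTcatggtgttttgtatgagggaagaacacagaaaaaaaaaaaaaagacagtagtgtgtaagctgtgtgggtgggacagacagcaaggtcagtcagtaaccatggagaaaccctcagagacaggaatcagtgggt
Klra7, chr6:130231638-130231937: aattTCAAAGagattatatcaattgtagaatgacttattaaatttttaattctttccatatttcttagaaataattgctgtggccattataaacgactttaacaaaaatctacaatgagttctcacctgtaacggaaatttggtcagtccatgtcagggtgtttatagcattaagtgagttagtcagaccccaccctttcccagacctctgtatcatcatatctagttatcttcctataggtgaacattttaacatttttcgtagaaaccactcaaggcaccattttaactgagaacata
Klrk1 held the RUNX letters and a TCF/LEF match that overlaps an AP-1 match. Klrc2 held the RUNX letters at 2 places and 1 AP-1 match, Klrc1 and Klrb1c held the RUNX letters once, and the Klra7 window shown held a TCF/LEF match near its far end; a second Klra7 window, not shown, held another such match. The RUNX letters were in 9 of the 28 windows (32.1%), against 16.8% of all 32851 promoter windows of this length. They were in 5 of 5 windows of Klrk1, Klrc1, Klrc2 and Klrc3 and in 4 of 23 windows of the other members, a split made after the values were seen. These windows are not independent: Klrc2 has 2 overlapping windows, and the Klrc3 window is 98.3% identical to one of Klrc2. The TCF/LEF letters were in 8 of 28 windows (28.6%, against 16% of all), the AP-1 letters in 5 (17.9%, against 7.81%) and the T-box letters in 1 (3.57%, against 3.98%). A match describes letters in a window and shows no binding.

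Together the Klr genes made up 955 ± 71.2 TPM in OVA/Citra, 1104 ± 33.0 TPM in OVA and 357 ± 30.6 TPM in CTRL (SD, n = 3 each). The make-up of that sum differed between the groups. Klrc, Klrd and Klrk genes held 79.1 ± 5.29% of it in OVA/Citra, 32.6 ± 11.3% in OVA and 93.2 ± 0.630% in CTRL. Klrg genes, almost wholly Klrg1, held 7.17 ± 3.06% in OVA/Citra, 40.2 ± 7.73% in OVA and 0.0993 ± 0.0173% in CTRL. Summed Klra genes came to 53.0 ± 5.77 TPM in OVA/Citra, 143 ± 18.2 TPM in OVA and 12.2 ± 0.626 TPM in CTRL. Summed Klrb genes came to 39.7 ± 7.51 TPM, 103 ± 21.2 TPM and 3.31 ± 0.929 TPM in the same groups. All OVA totals (1074 to 1139 TPM) lay above all OVA/Citra totals (875 to 1013 TPM), and the NKG2 and CD94 genes made up most of the Klr transcripts in OVA/Citra and CTRL but not in OVA.

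**Figure D1:**
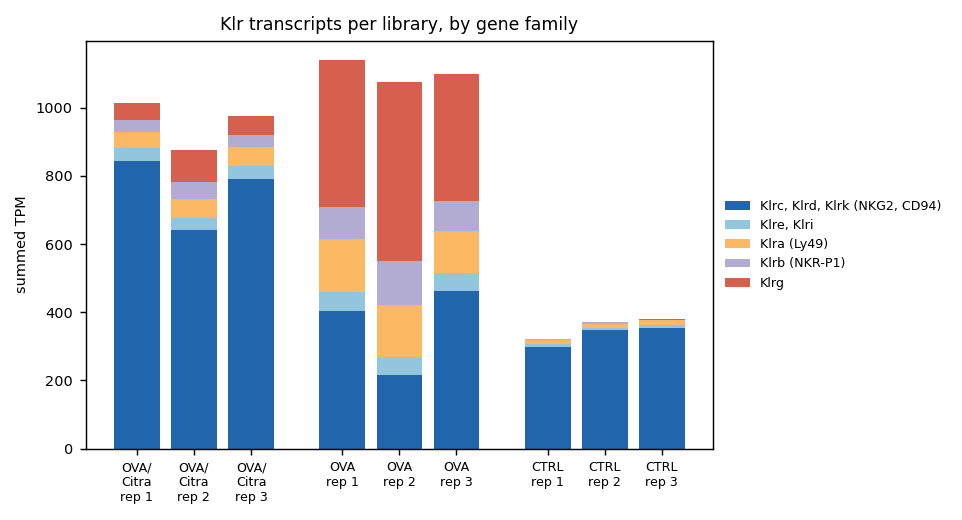
Summed TPM of the Klr genes in each of the 9 libraries (bars, vertical axis from 0), split by gene family in colours, with OVA/Citra at the left, OVA in the middle and CTRL at the right. The blue block of Klrc, Klrd and Klrk genes was 640 to 843 TPM in OVA/Citra, 217 to 464 TPM in OVA and 298 to 354 TPM in CTRL, and the red Klrg block was 50.3 to 93.4 TPM in OVA/Citra, 373 to 524 TPM in OVA and under 1 TPM in CTRL.

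A test was possible for 24 of the 30 genes, those whose mean reached 1 TPM in 1 group or more. Since a gene could pass this filter through 1 high group alone, the counts describe the genes tested and not all members. Klra4, Klra6, Klra14-ps and Klri1 passed through their OVA mean alone, and Klrc3 through its OVA/Citra mean alone. Like these, Klrg1, Klrb1a, Klrb1b, Klrb1c, Klra1, Klra2, Klra8, Klra9 and Klra13-ps had a CTRL mean under 1 TPM. All of them could enter the counts against CTRL only as genes high in a peptide group. In OVA/Citra against OVA, 4 of the 24 were called higher, where 37.8% of all tested genes were, and 16 were called lower, where 21.2% of all were, at an adjusted p under 0.05. The median change of the 24 was -0.97 on the log2 scale relative to that of all genes. In OVA/Citra against CTRL, 18 were higher (33.1% of all genes) and 2 lower (26.3%), with a median log2 change of 1.49. In OVA against CTRL, 17 were higher (32.1% of all genes) and 2 lower (39.8%), with a median log2 change of 1.68. With the 4 tested genes at 0 in CTRL (Klrb1a, Klra2, Klra14-ps and Klri1) set at their bound of 3 reads over the group, these medians were 1.67 for OVA/Citra and 2.57 for OVA. Groups of libraries that did not overlap were counted as well. In OVA/Citra against OVA, 5 of the 24 stood wholly higher (41.9% of all genes) and 14 wholly lower (24.2%); in OVA/Citra against CTRL 19 stood higher (37.3%) and 2 lower (30.1%); in OVA against CTRL 16 stood higher (33.7%) and 2 lower (41.3%). The mean was highest in OVA/Citra for 6 of the 24, in OVA for 16 and in CTRL for 2. Shares of all genes were not worked out for these counts, nor for those that follow without replicate 2. Without OVA replicate 2 the counts were 4 higher and 14 lower for OVA/Citra against OVA, and 19 higher and 2 lower for OVA against CTRL. Without OVA/Citra replicate 2 they were 5 higher and 14 lower for OVA/Citra against OVA, and 19 higher and 2 lower for OVA/Citra against CTRL. The comparisons share libraries in pairs and are not independent of each other.

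**Figure D2:**
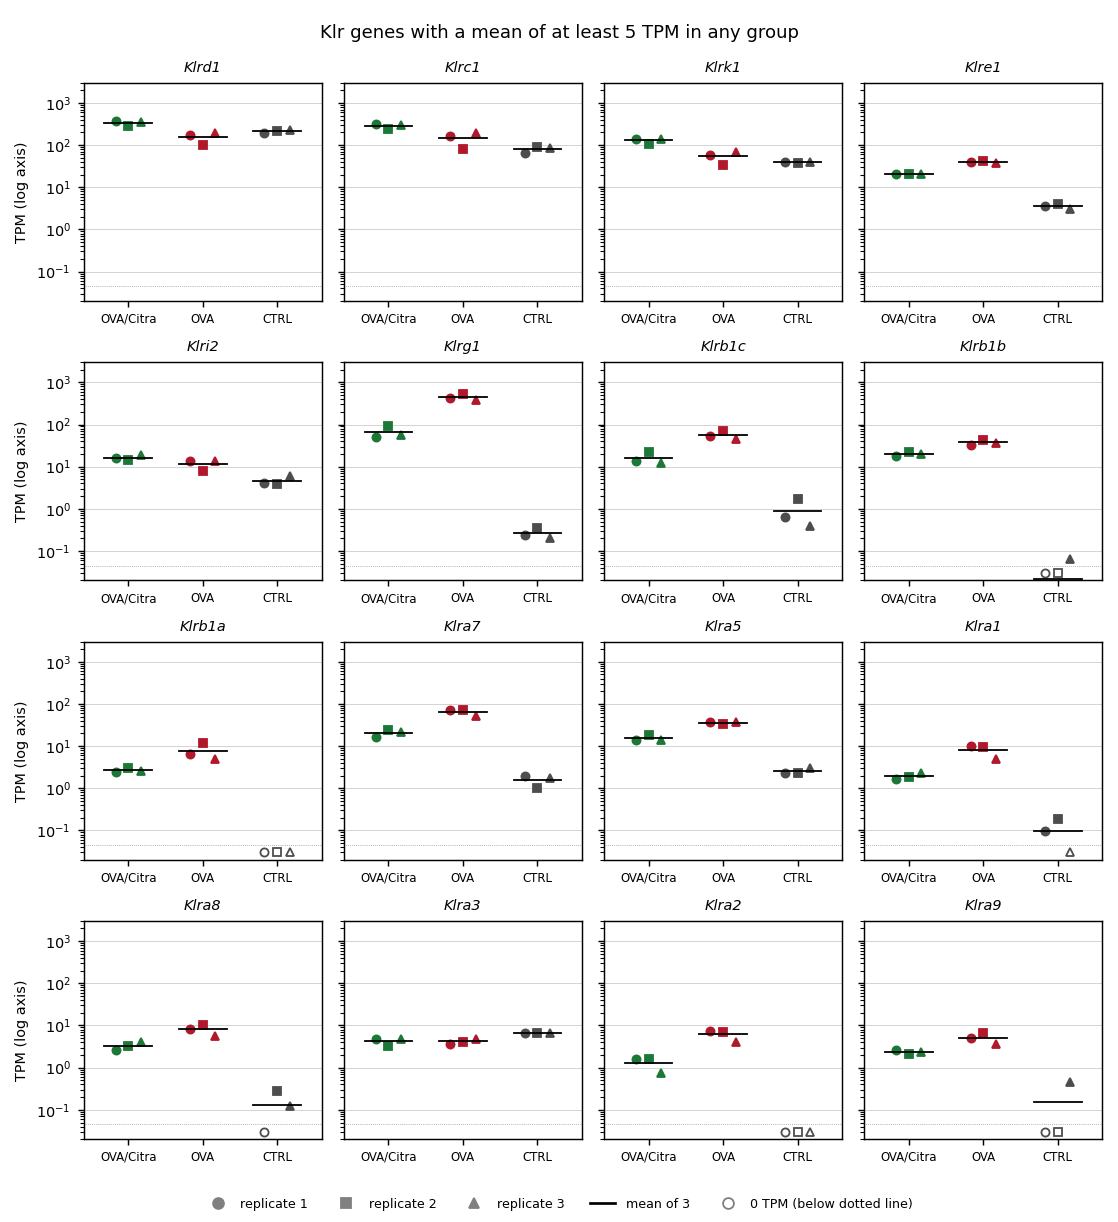
TPM (log axis) of the 16 Klr genes whose mean reached 5 TPM in 1 group or more, 1 panel per gene, with OVA/Citra, OVA and CTRL from left to right, 1 symbol per library, a line at the mean of 3 and open symbols under the dotted line for 0 TPM. Klrd1, Klrc1 and Klrk1 sit highest in OVA/Citra, Klrg1 and most Klrb and Klra genes sit highest in OVA, and Klra3 sits highest in CTRL.

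Klrd1, Klrc1 and Klrk1 were the 3 most abundant Klr transcripts in OVA/Citra, and 4 of the 5 NKG2 and CD94 genes were called higher there than in OVA (37.8% of all genes) and than in CTRL (33.1%). Klrd1, the shared CD94 chain, had 378, 282 and 346 TPM in OVA/Citra, against 177, 102 and 193 TPM in OVA and 190, 216 and 226 TPM in CTRL. All OVA/Citra libraries lay above all others, whereas OVA and CTRL libraries overlapped. Klrd1 was higher in OVA/Citra than in OVA by a log2 change of 1.005 ± 0.21 (SE) relative to the median (adjusted p = 0.0010), and than in CTRL by 0.66 ± 0.21 (adjusted p = 0.019). The call against CTRL was lost without OVA/Citra replicate 1 (adjusted p = 0.067), OVA/Citra replicate 3 (0.055) or CTRL replicate 1 (0.067). In OVA against CTRL the log2 change of Klrd1 was -0.47 ± 0.21 (adjusted p = 0.064), and it passed without OVA replicate 1 (adjusted p = 0.0495) or OVA replicate 3 (0.018). Without OVA replicate 2 it was -0.18 ± 0.11 (adjusted p = 0.18).

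Klrc1, which encodes the inhibitory chain NKG2A, had 320, 247 and 296 TPM in OVA/Citra, against 166, 80.3 and 199 TPM in OVA and 66.1, 91.2 and 86.2 TPM in CTRL. OVA/Citra libraries again stood above the rest, and OVA replicate 2 fell within the CTRL range. The rise in OVA/Citra was 0.92 ± 0.28 on the log2 scale against OVA, relative to the median (adjusted p = 0.0087), and 1.82 ± 0.28 against CTRL (adjusted p = 3.1e-04). The rise in OVA against CTRL, 0.78 ± 0.28 (adjusted p = 0.028), was lost without OVA replicate 1 (adjusted p = 0.096), OVA replicate 3 (0.10), CTRL replicate 1 (0.10) or CTRL replicate 3 (0.053), and with no filter on low genes (0.062). Without OVA replicate 2 it was 1.17 (adjusted p = 5.3e-05).

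Klrk1, which encodes NKG2D, a costimulatory receptor of CD8 T cells, had 140, 108 and 142 TPM in OVA/Citra, against 59.9, 33.0 and 69.4 TPM in OVA and 39.6, 38.1 and 40.2 TPM in CTRL. It was higher in OVA/Citra than in OVA by 1.18 ± 0.22 relative to the median (adjusted p = 6.8e-04) and than in CTRL by 1.69 ± 0.22 (adjusted p = 1.2e-04). OVA against CTRL gave 0.39 ± 0.22 (adjusted p = 0.14), and 0.70 ± 0.11 (adjusted p = 3.1e-04) without OVA replicate 2. For Klrd1, Klrc1 and Klrk1, OVA replicate 2 and OVA/Citra replicate 2 were the lowest libraries of their groups. Without OVA replicate 2 the log2 changes in OVA/Citra against OVA, before the median is taken off, were 0.84 for Klrd1, 0.65 for Klrc1 and 0.99 for Klrk1, and without OVA/Citra replicate 2 they were 1.25, 1.15 and 1.43; all passed.

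Klrc2, which encodes the activating chain NKG2C, was far lower than Klrc1: 3.55 ± 0.354 TPM in OVA/Citra, 1.03 ± 0.465 TPM in OVA and 1.12 ± 0.0953 TPM in CTRL. It was higher in OVA/Citra than in OVA (1.06 ± 0.17 relative to the median, adjusted p = 2.0e-04) and than in CTRL (1.10 ± 0.17, adjusted p = 2.7e-04), and OVA and CTRL overlapped. Klrc3, the NKG2E gene, had 1.68 ± 1.06 TPM in OVA/Citra, 0.831 ± 0.380 TPM in OVA and 0.796 ± 0.137 TPM in CTRL, from 23, 12 and 11 reads, and passed in no comparison. Without OVA/Citra replicate 2 (0.458 TPM, against 2.26 and 2.31 TPM in the other OVA/Citra libraries) it was called higher in OVA/Citra than in OVA (adjusted p = 0.0043) and than in CTRL (0.0044). The ratio of Klrc1 to Klrc2 was 81.1 ± 6.504 in OVA/Citra, 146 ± 21.1 in OVA and 72.9 ± 13.3 in CTRL. Klrc1 per Klrd1 transcript was 0.859 ± 0.0147 in OVA/Citra, 0.919 ± 0.123 in OVA and 0.384 ± 0.0376 in CTRL, so both peptide groups lay above CTRL in every library and overlapped with each other. Klrk1 per Klrd1 transcript was 0.388 ± 0.0217, 0.341 ± 0.0179 and 0.187 ± 0.0179 in the same groups; these ratios were not tested.

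The Klre and Klri genes encode chains that pair with each other, Klre1 with Klri1 in an inhibitory and Klre1 with Klri2 in an activating receptor. Klre1 had 21.1, 20.5 and 20.3 TPM in OVA/Citra, against 40.8, 41.6 and 37.1 TPM in OVA and 3.62, 4.11 and 3.13 TPM in CTRL. The 3 groups did not overlap, and the spread within each was small. It was lower in OVA/Citra than in OVA by a log2 change of -1.04 ± 0.09 relative to the median (adjusted p = 2.8e-05), and higher than in CTRL in OVA/Citra (2.23 ± 0.09, adjusted p = 4.4e-08) and in OVA (3.15 ± 0.09, adjusted p = 3.3e-09). Klri2 had 16.3, 14.3 and 18.5 TPM in OVA/Citra, against 13.5, 8.06 and 13.9 TPM in OVA and 4.02, 3.88 and 5.90 TPM in CTRL. It was higher than in CTRL in OVA/Citra (1.64 ± 0.20, adjusted p = 7.4e-05) and in OVA (1.18 ± 0.20, adjusted p = 4.2e-04), and the difference between OVA/Citra and OVA, 0.34 ± 0.20 relative to the median, did not pass (adjusted p = 0.073). That difference passed without OVA replicate 3 (adjusted p = 0.041) and in a voom fit on the recovered reads (0.048). Before the median is taken off it was 0.46, and 0.23 without OVA replicate 2 (adjusted p = 0.25). Klri1 had 0.257 ± 0.223 TPM in OVA/Citra and 1.28 ± 0.697 TPM in OVA and was at 0 in CTRL, from 4, 21 and 0 reads. It was lower in OVA/Citra than in OVA (adjusted p = 0.0088) and at least 6.69-fold higher in OVA than in CTRL, a bound that sets CTRL at 3 reads over the group.

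Klrg1, an inhibitory receptor for cadherins found on late effector T cells and natural killer cells, was the most abundant Klr transcript in OVA. It had 49.9, 92.5 and 56.9 TPM in OVA/Citra, against 429, 524 and 372 TPM in OVA and 0.244, 0.346 and 0.204 TPM in CTRL. The groups stood far apart with no overlap, and replicate 2 was the highest of its group in all 3. Klrg1 fell in OVA/Citra against OVA by a log2 change of -2.88 ± 0.20 relative to the median (adjusted p = 8.0e-06), to 0.150 times the OVA mean. Against CTRL, which held 7 reads in all, it was 251-fold higher in OVA/Citra (95% counting interval 121 to 625, adjusted p = 2.3e-08) and 1668-fold higher in OVA (809 to 4149, adjusted p = 1.5e-09). Counting intervals here cover counting error only. Per Klrc1 transcript, Klrg1 was at 0.156 to 0.375 in OVA/Citra, 1.87 to 6.52 in OVA and 0.00237 to 0.00380 in CTRL.

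Of the Klrb genes, 3 of the 4 tested were highest in OVA, intermediate in OVA/Citra and lowest in CTRL. These 3 had a CTRL mean under 1 TPM, so they passed the filter only through the peptide groups. Klrb1c, which encodes the NK1.1 antigen of natural killer cells, had 13.9, 21.7 and 12.3 TPM in OVA/Citra, against 54.2, 71.3 and 45.5 TPM in OVA and 0.642, 1.71 and 0.390 TPM in CTRL. It fell in OVA/Citra against OVA by -1.91 ± 0.27 relative to the median (adjusted p = 3.3e-04) and rose against CTRL by 3.17 ± 0.27 in OVA/Citra (adjusted p = 6.2e-06) and 4.96 ± 0.27 in OVA (adjusted p = 1.9e-07). As with Klrg1, replicate 2 was the highest library of each group.

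Klrb1b, an inhibitory receptor for Clr-b, had 17.5, 22.5 and 20.1 TPM in OVA/Citra, against 33.3, 43.0 and 36.2 TPM in OVA and 0, 0 and 0.0648 TPM in CTRL. The difference between OVA/Citra and OVA was -0.997 ± 0.12 relative to the median (adjusted p = 1.7e-04). The CTRL value rests on 1 read, so the ratios to CTRL, 927 in OVA/Citra (95% counting interval 166 to 36643) and 1737 in OVA (311 to 68641), are loosely bound. Klrb1a had 2.40, 3.06 and 2.52 TPM in OVA/Citra, against 6.34, 11.7 and 4.98 TPM in OVA, and was at 0 in every CTRL library. It was at least 26.5-fold higher in OVA/Citra and at least 76.6-fold higher in OVA than in CTRL, with CTRL set at 3 reads over the group, and lower in OVA/Citra than in OVA (-1.30 ± 0.23 relative to the median, adjusted p = 0.0017). Klrb1f, a receptor for Clr-g, went the other way. It had 1.05 ± 0.320 TPM in OVA/Citra, 0.773 ± 0.389 TPM in OVA and 2.37 ± 0.769 TPM in CTRL, and was lower than in CTRL in OVA/Citra (adjusted p = 0.016) and in OVA (0.0028). The OVA/Citra call was lost without OVA/Citra replicate 3 (adjusted p = 0.061) or CTRL replicate 1 (0.065).

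Among the Klra genes, 11 of 14 were tested. In OVA/Citra against OVA, 10 of these 11 were called lower (21.2% of all genes) and none higher (37.8%). Among these 10, Klra4, Klra6 and Klra14-ps reached the filter of 1 TPM through OVA alone, so they could enter only as genes high in OVA. In OVA/Citra against CTRL 8 of the 11 were higher (33.1%) and 1 lower (26.3%), and in OVA against CTRL 9 were higher (32.1%) and 1 lower (39.8%). All tested Klra genes but Klra3, Klra5 and Klra7 had a CTRL mean under 1 TPM. They could enter the counts against CTRL only as genes high in a peptide group. Klra7, an inhibitory receptor known as Ly49G, had 16.3, 23.9 and 21.5 TPM in OVA/Citra, against 70.9, 72.3 and 53.1 TPM in OVA and 1.91, 1.03 and 1.71 TPM in CTRL. It fell in OVA/Citra against OVA by -1.75 ± 0.18 relative to the median (adjusted p = 5.1e-05) and rose against CTRL by 3.08 ± 0.18 in OVA/Citra (adjusted p = 4.6e-07) and 4.71 ± 0.18 in OVA (adjusted p = 2.0e-08). Klra5, known as Ly49E, had 13.8, 18.3 and 13.6 TPM in OVA/Citra, against 37.4, 33.5 and 36.6 TPM in OVA and 2.35, 2.33 and 2.99 TPM in CTRL. Its difference between OVA/Citra and OVA was -1.31 ± 0.12 relative to the median (adjusted p = 3.7e-05). These were the only Klra genes above 15 TPM in any group mean, and in both the 3 groups did not overlap.

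The next Klra genes by level kept this order with CTRL near 0. Klra1 (Ly49A, inhibitory) had 1.70, 1.82 and 2.28 TPM in OVA/Citra, against 10.2, 9.64 and 4.998 TPM in OVA and 0.0980, 0.185 and 0 TPM in CTRL. Klra8 (Ly49H, the activating receptor for a cytomegalovirus protein) had 2.69, 3.29 and 4.07 TPM in OVA/Citra, against 8.06, 10.5 and 5.77 TPM in OVA and 0, 0.277 and 0.122 TPM in CTRL. Klra1 and Klra8 lay in the same order of groups, with no overlap between OVA/Citra and OVA libraries. Klra2 (Ly49B) had 1.58, 1.60 and 0.733 TPM in OVA/Citra, against 7.58, 7.07 and 3.96 TPM in OVA, and was at 0 in CTRL. Klra9 (Ly49I) had 2.603, 2.11 and 2.30 TPM in OVA/Citra, against 5.03, 6.59 and 3.73 TPM in OVA and 0, 0 and 0.451 TPM in CTRL. OVA replicate 3 was the lowest OVA library for Klra1, Klra8, Klra2 and Klra9. Relative to the median, OVA/Citra lay below OVA by -1.74 ± 0.22 for Klra1 (adjusted p = 1.7e-04), -1.17 ± 0.20 for Klra8 (0.0013), -1.75 ± 0.23 for Klra2 (1.9e-04) and -0.97 ± 0.20 for Klra9 (0.0045), on the log2 scale. The Klra9 call was lost with a pseudocount of 0.1 TPM (adjusted p = 0.14). Against CTRL, Klra2 was at least 15.5-fold higher in OVA/Citra and at least 73.6-fold higher in OVA, with CTRL set at 3 reads over the group.

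Klra3 (Ly49C, inhibitory) departed from the other Klra genes. It had 4.84, 3.27 and 4.87 TPM in OVA/Citra, against 3.71, 4.16 and 4.79 TPM in OVA and 6.56, 6.72 and 6.64 TPM in CTRL. CTRL libraries lay above all others, and OVA/Citra and OVA overlapped. Klra3 was lower than in CTRL in OVA/Citra (-0.54 ± 0.14, adjusted p = 0.0071) and in OVA (-0.56 ± 0.14, adjusted p = 0.0044), and the difference between OVA/Citra and OVA did not pass (adjusted p = 0.91). The ratio of Klra3 to Klra7 was 0.220 ± 0.0800 in OVA/Citra, 0.0666 ± 0.0205 in OVA and 4.61 ± 1.67 in CTRL, where Klra3 was the most abundant Klra transcript.

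The tested Klra genes below 5 TPM were Klra4 (Ly49D, activating), Klra6 (Ly49F), Klra13-ps and Klra14-ps. Their group means lay between 0.335 and 1.20 TPM in OVA/Citra, 1.25 and 4.05 TPM in OVA, and 0 and 0.442 TPM in CTRL. All 4 were called lower in OVA/Citra than in OVA, with adjusted p between 6.6e-04 (Klra13-ps) and 0.043 (Klra14-ps). The calls of Klra4, Klra6 and Klra14-ps were lost in several of the alternative settings, and OVA/Citra and OVA libraries overlapped for Klra6 and Klra14-ps. Near 0, with a mean under 1 TPM in every group, were Klrg2, Klrb1, Klrb1-ps1, Klra17, Klra11-ps and Klra10. Klrb1-ps1 had 0 reads in all libraries. Klrb1 had 1 read over the OVA/Citra libraries, 14 over the OVA libraries and 0 over the CTRL libraries; Klra10 and Klra11-ps had reads only in OVA, 3 and 2. Klrg2 had 38 reads in OVA/Citra, 40 in OVA and 6 in CTRL, and Klra17 had 14, 14 and 2.

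Reads of near-identical Klra copies cannot be divided with certainty. In GENCODE M21 transcripts, coding sequences were 96.9% identical between Klra9 and Klra10, 96.2% between Klra10 and Klra3 and 95.9% between Klra9 and Klra3. The share of a transcript's windows of 50 bases found unchanged in another Klr gene was 39.8% for Klra10, 33.1% for Klra8, 32.4% for Klra9, 21.5% for Klra3 and 14.7% for Klra7. It was 40.3% for Klrc1 and 41.1% for Klrc3, both shared mainly with Klrc2, and 9.42% for Klrc2 itself. The levels of Klrc2 and Klrc3 in particular, small beside Klrc1, are uncertain for that reason. No window was shared by Klrg1, Klrd1, Klrk1, Klre1, Klrb1f, Klrb1, Klra2, Klra17 or Klrg2. Exons of Klrb1b and Klrb1c overlapped on the same strand with those of Gm44511, whose mean was 0.823 TPM in OVA/Citra, 0.204 TPM in OVA and 0.0569 TPM in CTRL.

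In RefSeq order along chromosome 6 the Klr genes of the complex run from Klrb1a to Klra2, an interval with 92 genes that holds 28 of the 30 Klr genes; Klrg1 and Klrg2 lie outside it. Klrd1, Klrk1, Klrc3, Klrc2 and Klrc1 are neighbours in this order. All 5 had their highest mean in OVA/Citra, and 4 were called higher there than in OVA. The nearest Klr genes, Klre1 on one side and Klri1 on the other, were called lower in OVA/Citra than in OVA. Klri2, next to Klri1, had its highest mean in OVA/Citra, and Gabarapl1, the nearest tested gene before Klre1, was called higher there than in OVA. Klrb1f and Klra3 also differed from the Klr genes next to them in having their highest mean in CTRL. Of the 64 genes in the interval that are no Klr genes, 9 were tested. In OVA/Citra against OVA 3 of these were higher (37.8% of all genes) and 3 lower (21.2%). Among these, Cd69, an early activation antigen, had 220 ± 18.8 TPM in OVA/Citra, 112 ± 8.67 TPM in OVA and 186 ± 15.8 TPM in CTRL. Clec2d, which encodes the Klrb1b ligand Clr-b, had 23.2 ± 6.59 TPM in OVA/Citra, 17.6 ± 2.04 TPM in OVA and 19.3 ± 1.02 TPM in CTRL and passed in no comparison.

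**Figure D3:**
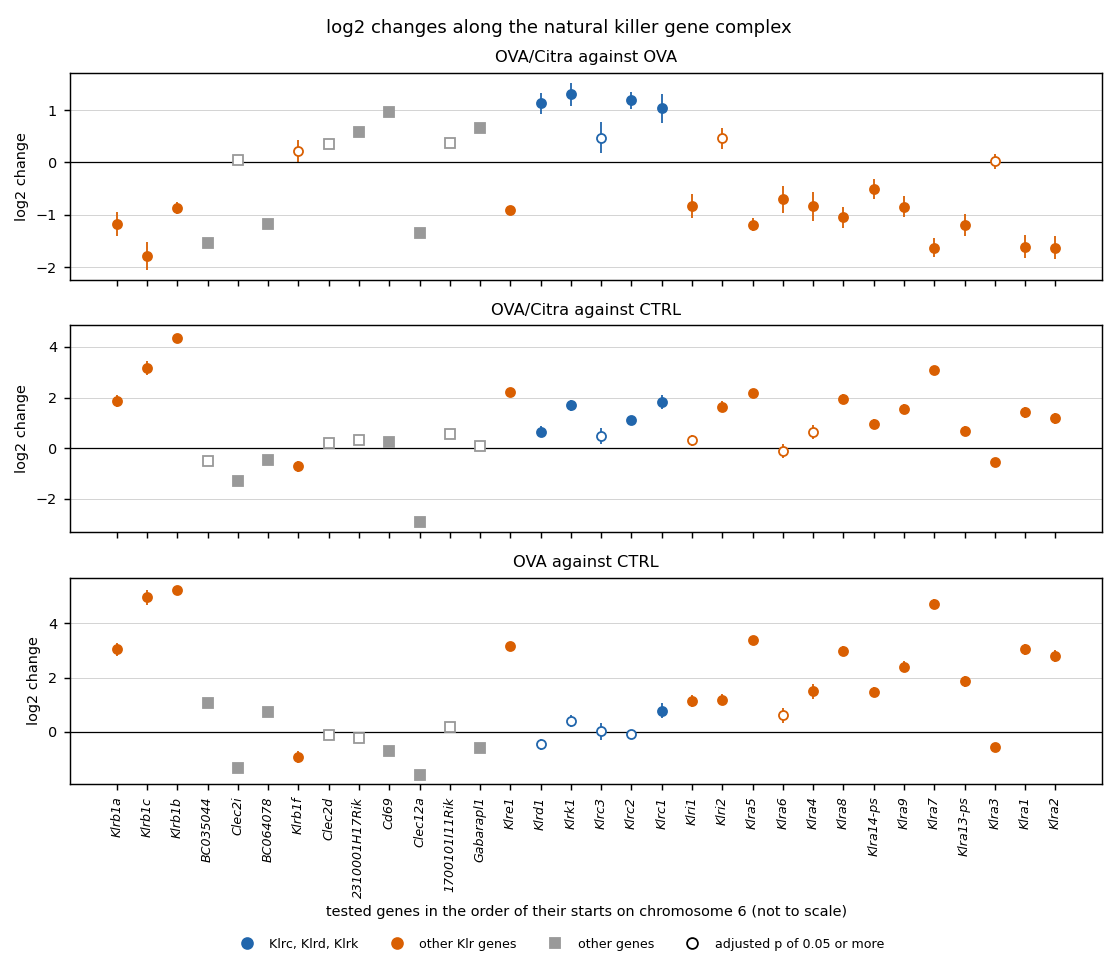
Log2 change on log2(TPM + 1) of each tested gene of the natural killer gene complex (points, with the standard error as a bar), in order of gene starts on chromosome 6 and not to scale, for OVA/Citra against OVA (top), OVA/Citra against CTRL (middle) and OVA against CTRL (bottom). In the top panel Klrd1, Klrk1, Klrc2 and Klrc1 (blue, filled) lie above 0 between Klre1 and Klri1 (orange), which lie below it; open symbols have an adjusted p of 0.05 or more, and the median of all genes, 0.12 in that panel, is not taken off.

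The 4 adaptor genes listed beside the Klr receptors did not move together. Tyrobp (DAP12) had 130 ± 44.2 TPM in OVA/Citra, 789 ± 179 TPM in OVA and 0.864 ± 0.189 TPM in CTRL, and Fcer1g (the Fc receptor gamma chain, used by NK1.1) had 134 ± 62.2, 933 ± 247 and 2.97 ± 0.396 TPM in the same groups. Both were lower in OVA/Citra than in OVA (adjusted p = 1.3e-05 and 2.5e-05), in the order seen for Klrg1 and for most tested Klrb and Klra genes. Hcst (DAP10, the partner of NKG2D) had 24.8 ± 5.58 TPM in OVA/Citra, 21.3 ± 3.05 TPM in OVA and 64.3 ± 10.3 TPM in CTRL. It was lower than in CTRL in both peptide groups (adjusted p = 8.2e-05 in OVA/Citra and 1.7e-05 in OVA), and the difference between OVA/Citra and OVA did not pass (adjusted p = 0.34). Hcst per Klrk1 transcript was 0.195 ± 0.0534 in OVA/Citra, 0.422 ± 0.123 in OVA and 1.64 ± 0.262 in CTRL. Cd247 (the CD3 zeta chain) had 78.6 ± 2.84 TPM in OVA/Citra, 62.7 ± 6.17 TPM in OVA and 121 ± 2.89 TPM in CTRL, and was higher in OVA/Citra than in OVA (adjusted p = 0.0026).

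**Figure D4:**
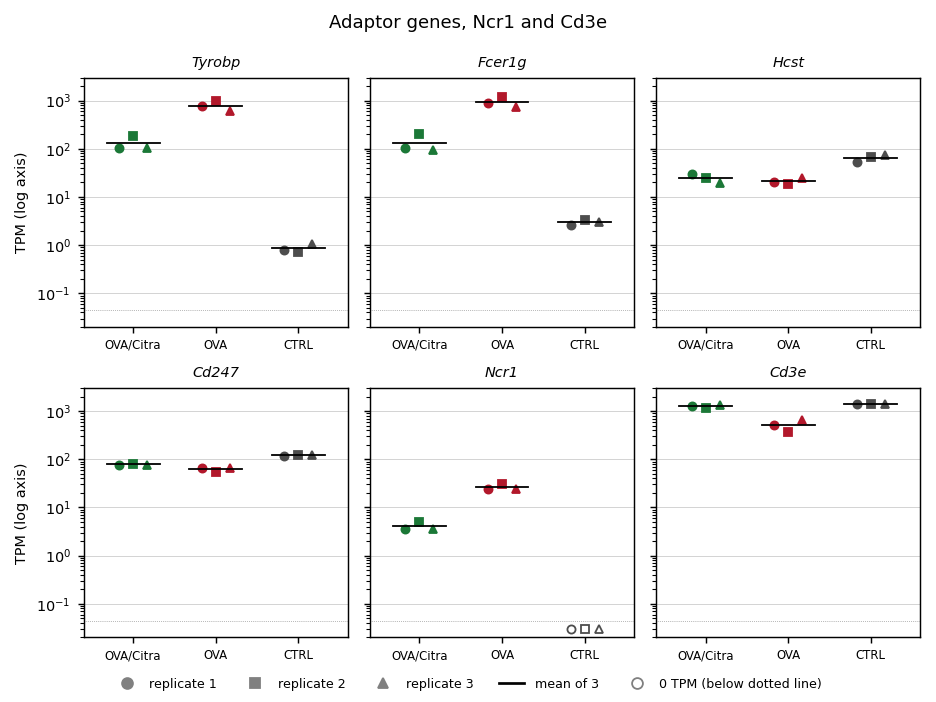
TPM (log axis) of 4 adaptor genes, of Ncr1 (an activating natural killer receptor) and of Cd3e (a T cell receptor chain), with OVA/Citra, OVA and CTRL from left to right, 1 symbol per library, a line at the mean of 3 and open symbols for 0 TPM. Tyrobp, Fcer1g and Ncr1 sit highest in OVA, whereas Cd3e sits lowest there, with means of 1281 TPM in OVA/Citra, 513 TPM in OVA and 1405 TPM in CTRL.

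All 16 phosphatases, kinases and adaptors downstream of these receptors were tested. In OVA/Citra against OVA 6 were higher (37.5%, against 37.8% of all genes) and 8 lower (50%, against 21.2%). In OVA/Citra against CTRL 5 were higher (31.25%, against 33.1%) and 4 lower (25%, against 26.3%). In OVA against CTRL 6 were higher (37.5%, against 32.1%) and 6 lower (37.5%, against 39.8%). Ptpn6, which encodes SHP-1, had 447 ± 28.6 TPM in OVA/Citra, 231 ± 74.2 TPM in OVA and 355 ± 0.456 TPM in CTRL and was higher in OVA/Citra than in OVA (adjusted p = 0.0013). Lck and Zap70, kinases that phosphorylate receptor tails or bind them, were also higher in OVA/Citra than in OVA, at 546 ± 49.4 TPM against 253 ± 72.8 TPM and at 216 ± 22.2 TPM against 125 ± 13.8 TPM. Sh2d1b1 and Sh2d1b2, SAP-related adaptors singled out after their values were seen, had 5.04 ± 1.14 and 7.58 ± 2.55 TPM in OVA/Citra, 29.7 ± 5.74 and 85.8 ± 19.0 TPM in OVA, and 0.0214 ± 0.0370 and 0.0378 ± 0.0655 TPM in CTRL. They are close paralogs, so the division of reads between them is uncertain.

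Ligand genes were read in the same libraries. Of 22 listed, 18 were in the table and 8 were tested. In OVA/Citra against OVA 3 were higher (37.5%, against 37.8% of all genes) and 2 lower (25%, against 21.2%). In OVA/Citra against CTRL 2 were higher (25%, against 33.1%) and 4 lower (50%, against 26.3%). In OVA against CTRL 2 were higher (25%, against 32.1%) and 4 lower (50%, against 39.8%). H2-T23, which encodes Qa-1, the ligand of CD94 paired with NKG2A, had 232 ± 4.17 TPM in OVA/Citra, 138 ± 10.5 TPM in OVA and 150 ± 2.69 TPM in CTRL, and was higher in OVA/Citra than in both other groups (adjusted p = 8.8e-06 against OVA and 8.9e-06 against CTRL). H2-K1 and H2-D1, the classical class I genes, and B2m, their light chain, were lower than in CTRL in both peptide groups. H2-K1, for one, had 1343 ± 87.0 TPM in OVA/Citra, 1050 ± 44.0 TPM in OVA and 2229 ± 53.3 TPM in CTRL. Ulbp1, a ligand of NKG2D, had 40.2 ± 4.10 TPM in OVA/Citra, 50.7 ± 4.75 TPM in OVA and 33.2 ± 2.01 TPM in CTRL and was lower in OVA/Citra than in OVA (adjusted p = 0.010). Cdh1 (E-cadherin, a ligand of KLRG1), singled out after its values were seen, had 2.05 ± 0.489 TPM in OVA/Citra, 19.8 ± 4.56 TPM in OVA and 1.89 ± 0.166 TPM in CTRL.

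Other receptors of natural killer cells did not follow 1 pattern either. Of 11 tested, 6 were higher (54.5%, against 37.8% of all genes) and 3 lower (27.3%, against 21.2%) in OVA/Citra than in OVA. Tigit, an inhibitory receptor for nectin-like proteins, had 474 ± 24.5 TPM in OVA/Citra, 156 ± 44.2 TPM in OVA and 119 ± 0.659 TPM in CTRL, and Crtam, a receptor for another nectin-like protein, had 306 ± 28.5, 84.2 ± 35.9 and 3.04 ± 0.202 TPM in the same groups. Both were higher in OVA/Citra than in OVA (adjusted p = 4.0e-05 and 2.0e-04), as the NKG2 and CD94 genes were. Ncr1, Fcgr3 and Pilrb1 were the 3 lower genes. Ncr1 (NKp46), singled out after its values were seen, had 4.07 ± 0.834 TPM in OVA/Citra and 26.3 ± 4.19 TPM in OVA and was at 0 in CTRL, in the order seen for Klrg1.

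Among 19 transcription factors known to act on killer receptor genes, 17 were tested. In OVA/Citra against OVA 7 were higher (41.2%, against 37.8% of all genes) and 4 lower (23.5%, against 21.2%). In OVA/Citra against CTRL 6 were higher (35.3%, against 33.1%) and 7 lower (41.2%, against 26.3%). In OVA against CTRL 6 were higher (35.3%, against 32.1%) and 9 lower (52.9%, against 39.8%). Runx3, which binds the RUNX letters searched above, had 134 ± 10.8 TPM in OVA/Citra, 119 ± 7.25 TPM in OVA and 124 ± 10.4 TPM in CTRL and passed in no comparison. Runx1, of the same family, was singled out after its values were seen. It had 2.82 ± 0.309 TPM in OVA/Citra, 2.54 ± 0.229 TPM in OVA and 9.61 ± 1.57 TPM in CTRL. Runx1 was lower than in CTRL in OVA/Citra (adjusted p = 6.8e-06) and in OVA (2.1e-06). Id2 and Irf8 were lower in OVA/Citra than in OVA and higher there than in CTRL; Id2 had 809 ± 110 TPM in OVA/Citra, 1212 ± 171 TPM in OVA and 529 ± 51.4 TPM in CTRL. Ets1 had 81.0 ± 10.3 TPM in OVA/Citra, 46.8 ± 7.998 TPM in OVA and 157 ± 7.35 TPM in CTRL and was higher in OVA/Citra than in OVA (adjusted p = 3.6e-04). Of the other factors singled out after their values were seen, Eomes had 82.8 ± 15.6 TPM in OVA/Citra, 178 ± 44.7 TPM in OVA and 3.35 ± 0.171 TPM in CTRL, and Bcl11b, which holds T cells to their lineage, had 13.3 ± 1.58, 5.04 ± 2.11 and 37.7 ± 3.31 TPM in the same groups. Tbx21, of the same T-box family as Eomes, went the other way against CTRL, with 24.7 ± 1.52, 27.3 ± 4.38 and 34.7 ± 3.82 TPM. It was lower than in CTRL in OVA/Citra (adjusted p = 0.0053) and in OVA (0.021). Between OVA/Citra and OVA it did not pass (0.36). Tcf7, of the TCF/LEF family, had 60.6 ± 24.2, 3.24 ± 2.32 and 61.0 ± 19.1 TPM. It was higher in OVA/Citra than in OVA (adjusted p = 4.1e-05). Lef1, of the same family, had 29.1 ± 2.37, 26.2 ± 2.13 and 44.5 ± 0.679 TPM and did not pass there (0.12).

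Marker lists of other cell types moved with several of these groups of genes. The list of natural killer cell markers outside the Klr genes shares Tyrobp, Fcer1g, Fcgr3, Ncr1, Irf8 and Eomes with those above. All 13 tested were lower in OVA/Citra than in OVA (21.2% of all genes). In OVA against CTRL 11 were higher (32.1%) and 1 lower (39.8%). Of the 13, 4 had a CTRL mean under 1 TPM and could enter only as genes high in a peptide group. Of 15 CD8 T cell markers, 14 were higher in OVA/Citra than in OVA (37.8% of all genes) and none lower (21.2%). In OVA against CTRL 13 were lower (39.8%). Klrg1, Klrb1a, Klrb1b, Klrb1c and most tested Klra genes lay in the same order of groups as the summed natural killer list. Klrd1, Klrc1 and Klrk1 were higher in OVA/Citra than in OVA, as were most of the T cell list, and higher in OVA/Citra than in CTRL, where 5 of the T cell list were higher, 4 lower and 6 not called. In OVA against CTRL none of the T cell list was higher. There Klrc1 was called higher, a call lost in several settings. Klrd1 (-0.47 ± 0.21, adjusted p = 0.064) and Klrk1 (0.39 ± 0.22, adjusted p = 0.14) did not pass. The 4 markers of natural killer T and innate-like T cells summed to 44.6 to 58.8 TPM in OVA/Citra, 102 to 129 TPM in OVA and 67.6 to 73.7 TPM in CTRL, and Zbtb16, the defining factor among them, averaged 0.0834 TPM in OVA/Citra, 0.169 TPM in OVA and 0.125 TPM in CTRL. Of 12 myeloid and dendritic markers, Fcgr1, S100a8, S100a9 and Siglech were at 0 in all libraries, and the list summed to 9.12 to 11.8 TPM in OVA/Citra, 15.0 to 18.4 TPM in OVA and 8.26 to 12.3 TPM in CTRL. Gamma delta T cell markers summed to 27.9 to 35.01 TPM in OVA/Citra, 58.7 to 80.0 TPM in OVA and 209 to 263 TPM in CTRL. Stromal and epithelial markers, led by Pecam1, summed to 64.8 to 84.6 TPM in OVA/Citra, 264 to 387 TPM in OVA and 44.4 to 48.0 TPM in CTRL, with Krt8 at 0 in all libraries. B cell markers summed to 55.3 to 87.9 TPM in OVA/Citra, 58.0 to 88.4 TPM in OVA and 225 to 260 TPM in CTRL.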

How the data were processed

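The authors deposited TPM values, 1 column for each of the 9 libraries, under a file name that says FPKM; every column sums to 1000000, so they were read as TPM. The tools named per the submitters' processing notes are Salmon and Trim Galore 0.5.0, with mouse build GRCm39; which annotation was used is not stated there. Promoters came from RefSeq (GRCm38.p6) and transcripts from GENCODE M21, matched by symbol; coordinates are of GRCm38 only.

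Values were changed to log2(TPM + 1), so fold changes of low genes are understated. The 11971 genes whose mean reached 1 TPM in 1 group or more were fitted together over all 9 libraries with limma 3.58.1 in R 4.3.3 (lmFit, then eBayes with a trend). P-values are two-sided and adjusted with the Benjamini-Hochberg method over all tested genes of each of 3 comparisons; a call is an adjusted p under 0.05. Reads were worked back from the TPM and were whole for 16734 of 16734 genes above 0 in at least 2 libraries (100%), within 0.0001 reads or 3e-08 of the count. They served for depth, for bounds on folds (3 reads over a group) and for 95% counting intervals, exact for the ratio of counts. The limma fit and the recovery of reads were tested on simulated data.

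The members and the gene lists were chosen with earlier results of these data known, and 18 alternative settings were run. Values in every library are given for Klr genes whose mean reached 5 TPM, and other lists are shown by at most 5 genes with the highest mean, plus those said to be singled out later.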

Additional observations from a re-analysis of the deposited data

How the results depend on the processing

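Over 18 alternative settings and 72 tested changes of Klr genes, 1272 values were computed: 1213 kept direction and side of the threshold, 38 lost the call, 21 gained one and 0 turned round. The count of Klr genes lower in OVA than in CTRL, 2, was 1 with a filter of 5 TPM, and was 2 or 3 on leaving out single libraries. The count lower in OVA/Citra than in CTRL, also 2, was 1 with that filter, which leaves 16 Klr genes to test, and 1 to 2 on leaving out single libraries (1 without OVA/Citra replicate 3 or CTRL replicate 1, where Klrb1f no longer passed). On leaving out single libraries, counts were 16 to 19 higher in OVA than in CTRL, 4 to 5 higher and 13 to 16 lower in OVA/Citra than in OVA, and 16 to 19 higher in OVA/Citra than in CTRL. Shares of all genes were not worked out for the counts in these alternative settings. The calls most often lost were those of Klra14-ps, Klra6 and Klra4 in OVA/Citra against OVA, with 56 reads or fewer in the OVA libraries, and of Klrc1 in OVA against CTRL, with 5902; the cause was not tested.

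The replicate numbers were not taken as pairs: correlations between libraries of the same number in their deviations from the group means were -0.012, 0.081 and 0.0028 for OVA with CTRL, 0.048, 0.304 and 0.143 for OVA/Citra with OVA, and 0.028, 0.103 and 0.025 for OVA/Citra with CTRL. Not every library correlated best with its own number. With the replicate block, 19 Klr genes were higher and 3 lower in OVA than in CTRL, 5 higher and 15 lower in OVA/Citra than in OVA, and 18 higher and 2 lower in OVA/Citra than in CTRL. The shares of all genes called with the block were not worked out. The block turned the calls of Klrd1 (lower, adjusted p = 0.027), Klrk1 (higher, 0.048) and Klra6 (higher, 0.033) in OVA against CTRL and of Klri2 (higher, 0.012) and Klra14-ps (lost, 0.067) in OVA/Citra against OVA. Differences of the 6 Klr genes under 1 TPM in every group were not tested.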
